A study of Mus musculus with 6 samples.

Results

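Expression of 10 innate immune receptor genes was followed across mouse dermal fibroblasts cultured on substrates of different stiffness. They comprise Cd14, Tlr2, Tlr3, Tlr4 and Ly96, which recognise microbial products, the adaptor Myd88, the interleukin-1 (IL-1) family receptors Il1r1 and Il1rl1, the tumour necrosis factor (TNF) receptor Tnfrsf1b and the immunoglobulin Fc receptor Fcgr2b. The 10 genes were named by receptor family with the counts of these same 6 libraries already known, so their levels and fold changes are given as a description and carry no p. They are 10 of 57010 genes in the deposited count table, and all 10 were among the 16093 genes that passed a filter on low counts. The leukocyte marker Ptprc, which encodes CD45, was read beside them.

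Fibroblasts from the mouse ear were kept for 3 days on 1 of 3 substrates, and their polyadenylated RNA was sequenced. The substrates were a soft polyacrylamide gel of 1 kPa, a firmer polyacrylamide gel of 20 kPa, and glass as the control, with 2 libraries each. Glass is another material than the gels and has no stiffness value in the labels. In comparisons with glass, stiffness and material therefore cannot be told apart. The labels give 500000 cultured cells per sample and name no treatment, transgene or gene deletion in any group. Whether paired libraries of a substrate derive from different mice or different cultures is not stated, and each p below therefore reflects the spread among these samples alone, possibly a technical one. The series addresses how substrate stiffness acts on the epigenetic state of cells used for reprogramming.

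Toll-like receptors are membrane proteins that bind conserved microbial molecules and, in most cases, signal through the adaptor MyD88 to NF-kappaB. The IL-1 family receptors share the same intracellular TIR domain and the same adaptor, so both families feed into common kinases. Fibroblasts of the skin are not professional immune cells but are known to carry several of these receptors and to answer bacterial products and IL-1 with cytokines and chemokines. Fc receptors for immunoglobulin G are classically studied on leukocytes.

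Library totals ran between 17669006 and 21350111 counts, at which 3 counts correspond to 0.139 to 0.174 CPM (counts scaled to a common library size, with TMM factors). Fibroblast markers summed to 51721 and 50612 CPM on 1 kPa, 55474 and 52704 CPM on 20 kPa, and 39264 and 36507 CPM on glass. The 18 leukocyte markers together summed to between 5.64 and 8.14 CPM in the 6 libraries. All fold changes below are log2 values with a standard error (SE) from 1 edgeR quasi-likelihood fit of the 6 libraries, and a gene is called where the p adjusted over all tested genes is below 0.05.

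Of the 10 receptor genes, 7 were called higher on 1 kPa than on glass, beside 23.0% of all tested genes, and 1 was called lower, beside 22.0% (45.0% in either direction). On 20 kPa against glass 7 were again called higher, beside 22.3% of all tested genes, and 1 lower, beside 19.6% (41.8% in either direction). On 1 kPa against 20 kPa 5 were called higher, beside 9.92% of all tested genes, and none lower, beside 8.94% (18.9% in either direction). The libraries of the compared groups did not overlap for 9 of the 10 genes on 1 kPa against glass (71.0% of all tested genes), 9 on 20 kPa against glass (67.5%) and 7 on 1 kPa against 20 kPa (60.1%). Nothing is read from these shares, since the genes were chosen from these data. Fcgr2b, counted among those called higher against glass, passed the filter only through the gel libraries. The median log2 fold change of the 10 genes was 0.52 on 1 kPa against glass, 0.61 on 20 kPa against glass and 0.17 on 1 kPa against 20 kPa. Over all tested genes the medians were 0.00, 0.02 and 0.00 in the same order of comparisons. Both comparisons with glass use the same glass libraries, and the comparison between the gels shares its libraries with them.

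**Figure D1:**
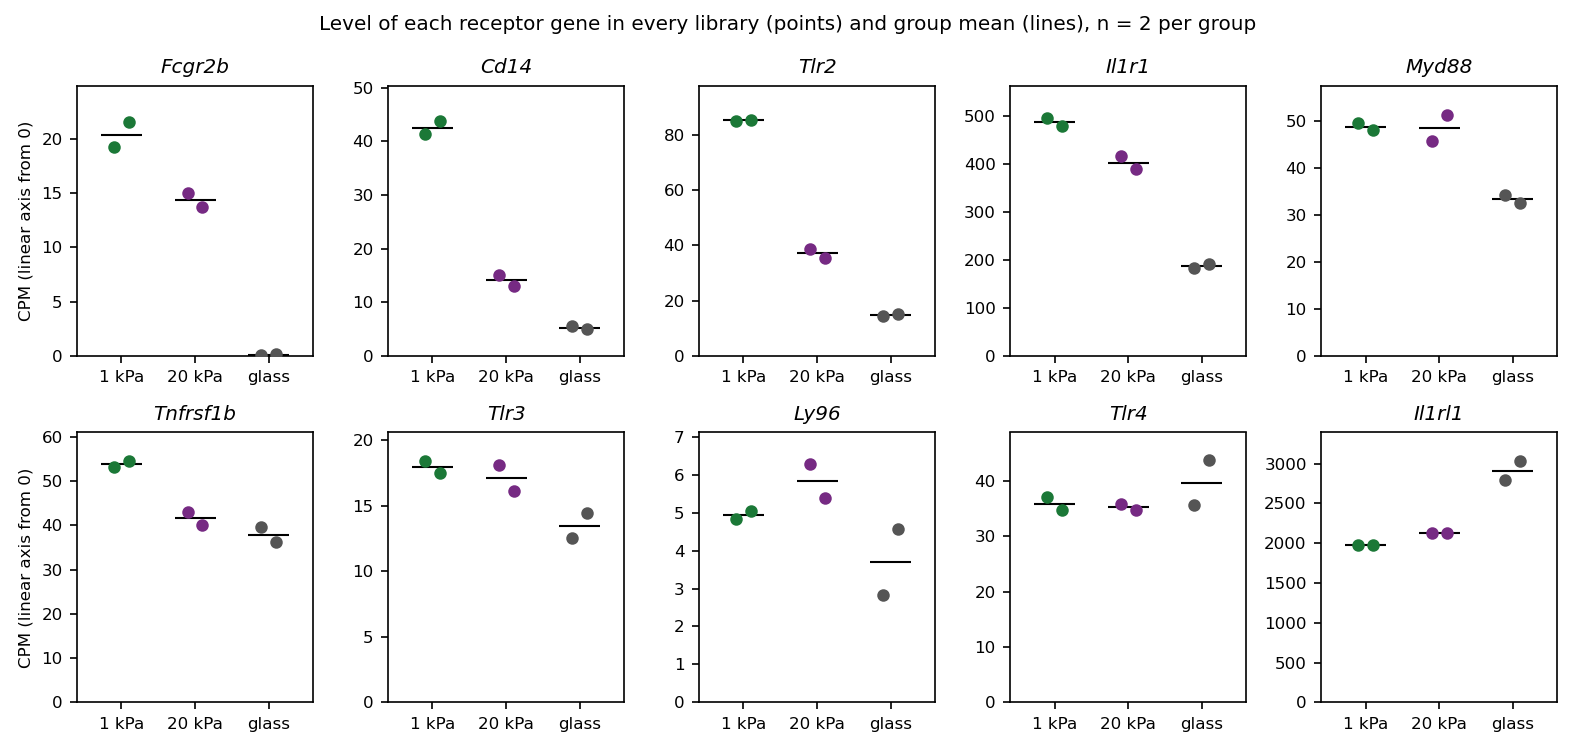
Level of each of the 10 receptor genes in every library, in CPM on a linear axis that starts at 0, with each panel on its own scale. Points are libraries and lines are the means of 2 libraries on 1 kPa, 20 kPa and glass. Cd14, Tlr2, Il1r1 and Fcgr2b step down from 1 kPa to 20 kPa to glass. Il1rl1 is highest on glass, and the Tlr4 libraries of the 3 groups overlap.

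The genes of the proteins that detect bacterial lipopolysaccharide did not share 1 pattern of RNA level. CD14 is a lipid-anchored co-receptor that hands lipopolysaccharide to the complex of TLR4 and MD-2. Cd14 (ENSMUSG00000051439.8, GRCm38 chromosome 18, 36725067 to 36726798, minus strand) had 41.3 and 43.8 CPM on 1 kPa, 15.1 and 13.1 CPM on 20 kPa, and 5.59 and 4.93 CPM on glass. The groups did not overlap, and the level stepped down from 1 kPa to 20 kPa to glass. The log2 fold change of Cd14 was 3.00 (SE 0.12) on 1 kPa against glass, 1.41 (SE 0.13) on 20 kPa against glass and 1.59 (SE 0.10) on 1 kPa against 20 kPa. In bulk RNA, a change in the number of expressing cells and a change in RNA per cell cannot be told apart, and this holds for every gene below.

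TLR4 is the signalling receptor of the complex. Tlr4 (ENSMUSG00000039005.14, chromosome 4, 66827584 to 66930284, plus strand) had 37.1 and 34.7 CPM on 1 kPa, 35.9 and 34.7 CPM on 20 kPa, and 35.6 and 43.9 CPM on glass. The libraries of both gels overlapped with glass replicate 1, and glass replicate 2 was the highest of the 6. Its log2 fold change was -0.14 (SE 0.09) on 1 kPa against glass, -0.16 (SE 0.09) on 20 kPa against glass and 0.02 (SE 0.09) between the gels, none of them called. Without glass replicate 1, Tlr4 was called lower on both gels than on glass, with log2 fold changes of -0.29 on 1 kPa and -0.31 on 20 kPa. Without glass replicate 2, these values were 0.01 and -0.01.

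Ly96 encodes MD-2, the soluble partner of TLR4 that binds the lipid itself. Ly96 (ENSMUSG00000025779.11, chromosome 1, 16688051 to 16709611, plus strand) had 4.82 and 5.04 CPM on 1 kPa, 6.29 and 5.38 CPM on 20 kPa, and 2.82 and 4.58 CPM on glass. All 4 gel libraries lay above both glass libraries, but glass replicate 2 was close to the 1 kPa libraries. The log2 fold change was 0.44 (SE 0.21) on 1 kPa against glass, which was not called, and 0.68 (SE 0.21) on 20 kPa against glass, which was. The 2 glass libraries set these values. Without glass replicate 1 they were 0.10 on 1 kPa and 0.35 on 20 kPa, neither called, and without glass replicate 2 they were 0.80 and 1.05, both called. The call on 20 kPa was also lost without 20 kPa replicate 1.

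Levels of different genes were compared per kb of exon. The ratio of Cd14 to Tlr4 was 3.81 ± 0.33 on 1 kPa, 1.28 ± 0.10 on 20 kPa and 0.433 ± 0.10 on glass (SD, n = 2 each). Cd14 thus exceeded Tlr4 per kb in all 4 gel libraries and lay below it in both glass libraries. The ratio of Tlr4 to Ly96 was 1.34 ± 0.11 on 1 kPa, 1.12 ± 0.10 on 20 kPa and 2.04 ± 0.39 on glass.

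Among companion genes of Toll-like receptors, taken from a list of co-receptors and chaperones, 5 of 8 tested rose and 1 fell on each gel against glass, and 3 rose and none fell on 1 kPa against 20 kPa. Of all tested genes, 45.0% were called on 1 kPa against glass, 41.8% on 20 kPa against glass and 18.9% between the gels. Lbp, which encodes the serum protein that carries lipopolysaccharide to CD14, had 411 and 403 CPM on 1 kPa, 204 and 190 CPM on 20 kPa, and 18.2 and 19.3 CPM on glass. Lbp was highest on 1 kPa and lowest on glass, without overlap. Its log2 fold change was 4.44 (SE 0.07, edgeR adjusted p = 1.36e-28) on 1 kPa against glass. The value was 3.40 (SE 0.07, adjusted p = 1.26e-25) on 20 kPa against glass. Between 1 kPa and 20 kPa it was 1.05 (SE 0.06, adjusted p = 1e-14). Cd36, a scavenger receptor that assists Toll-like receptors with lipid ligands, had 253 counts on 1 kPa, 137 on 20 kPa and 5 on glass over the 2 libraries of each group. The depth-scaled ratio of its counts was 51.3 (95% counting interval 21.7 to 159) on 1 kPa against glass and 25.9 (10.8 to 80.9) on 20 kPa against glass. Glass replicate 1 had 0 and glass replicate 2 had 5 of these counts. Cd36 thus passed the filter through the gel libraries and could only be called higher against glass. Its fitted log2 fold changes were 5.61 on 1 kPa and 4.62 on 20 kPa. They were 4.47 and 3.49 without glass replicate 1, and 10.06 and 9.08 without glass replicate 2. Unc93b1, the chaperone of the endosomal Toll-like receptors, rose by 0.75 (SE 0.08, adjusted p = 3.89e-09) on 1 kPa against glass and by 0.55 (SE 0.08, adjusted p = 1.26e-06) on 20 kPa against glass.

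**Figure D2:**
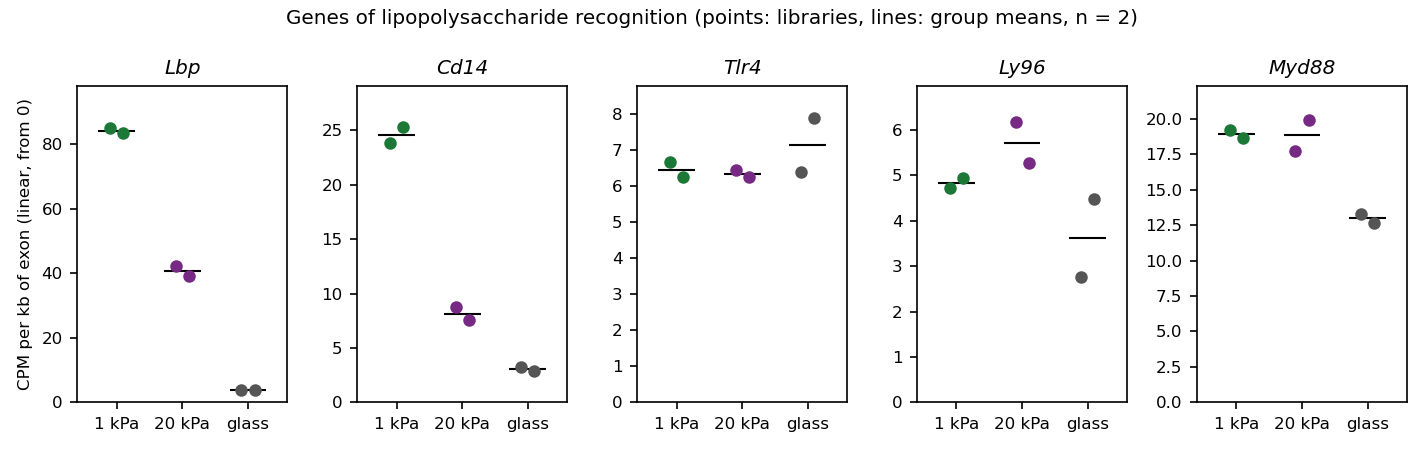
Genes of lipopolysaccharide recognition in CPM per kb of exon on linear axes that start at 0, with each panel on its own scale. Points are libraries and lines are the means of 2 libraries on 1 kPa, 20 kPa and glass. Lbp and Cd14 are highest on 1 kPa and lowest on glass, while Tlr4 lies between 6 and 8 in every library.

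TLR2 recognises bacterial lipopeptides as a dimer with TLR1 or TLR6. Tlr2 (ENSMUSG00000027995.11, chromosome 3, 83836272 to 83841767, minus strand) had 85.1 and 85.2 CPM on 1 kPa, 38.7 and 35.5 CPM on 20 kPa, and 14.4 and 15.1 CPM on glass. The groups were well apart, with 1 kPa highest and glass lowest, as for Cd14. Its log2 fold change was 2.53 (SE 0.08) on 1 kPa against glass, 1.33 (SE 0.09) on 20 kPa against glass and 1.20 (SE 0.07) on 1 kPa against 20 kPa. The ratio of Tlr2 to Tlr4 per kb was 4.38 ± 0.21 on 1 kPa, 1.94 ± 0.072 on 20 kPa and 0.692 ± 0.079 on glass (SD, n = 2 each).

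The genes of the partner receptors of TLR2 were not called higher on either gel. Tlr6 averaged 1.12 CPM on 1 kPa, 1.65 CPM on 20 kPa and 2.66 CPM on glass, and fell on 1 kPa against glass (log2 fold change -1.25, SE 0.32, edgeR adjusted p = 0.00161). On 20 kPa against glass its log2 fold change was -0.70 (SE 0.29, adjusted p = 0.0553), which passed the threshold only without glass replicate 2 among 12 alternatives. Tlr1 averaged 0.548 CPM on 1 kPa, 0.680 CPM on 20 kPa and 1.04 CPM on glass and was not called in any comparison. Of the 9 other Toll-like receptors, 4 were tested, of which 2 fell on 1 kPa against glass and 1 fell on 20 kPa against glass. Among all tested genes, 22.0% and 19.6% fell in these comparisons. Tlr5, the flagellin receptor, fell in both (log2 fold changes of -1.35 with adjusted p = 0.00122 and -1.10 with adjusted p = 0.00565), the second not without 20 kPa replicate 2. Tlr7, a receptor of single-stranded RNA, had 71 and 64 counts on 1 kPa, 48 and 37 counts on 20 kPa, and 57 and 44 counts on glass, and was called higher on 1 kPa than on 20 kPa, a call lost with DESeq2, without either 1 kPa library and without 20 kPa replicate 2.

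Because Tlr2 is a textbook target of NF-kappaB, the 300 bases around its start in RefSeq (GRCm38.p6, chr3:83841559-83841858, minus strand, 250 bases before the start and 50 after it) are shown with the matches to the kappaB motif in capitals.

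Tlr2: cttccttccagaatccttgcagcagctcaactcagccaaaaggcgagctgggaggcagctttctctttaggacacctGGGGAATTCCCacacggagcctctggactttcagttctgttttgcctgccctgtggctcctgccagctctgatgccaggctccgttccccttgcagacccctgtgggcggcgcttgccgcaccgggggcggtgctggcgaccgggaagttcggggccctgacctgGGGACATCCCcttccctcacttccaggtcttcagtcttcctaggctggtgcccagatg

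The kappaB matches begin at -173, -172 and -8 relative to the start, the first 2 of them overlapping. On either strand, a kappaB match was present in 4.51% of 32851 such windows of mouse genes. Windows were found for 7 of the 10 genes, 9 windows in all, and 4 other motifs were searched on both strands. The AP-1 motif TGANTCA was present in 7.81% of all windows. The PU.1 motif GAGGAAGT was present in 3.20%. The GATA motif AGATAA was present in 11.2%, and ISRE, read as the letters GAAA repeated after a gap of any 2 bases, in 3.44%. A match describes the letters only and says nothing of binding in these cells. In addition to Tlr2, a kappaB match was found in the window of Tlr3 at -211 and a GATA match at -84, and ISRE matches were found in those of Myd88 at -40 and Tnfrsf1b at -10.

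TLR3 is the endosomal receptor of double-stranded RNA and, unlike the other Toll-like receptors, signals through TRIF in place of MyD88. Tlr3 (ENSMUSG00000031639.13, chromosome 8, 45395665 to 45411080, minus strand) had 18.4 and 17.5 CPM on 1 kPa, 18.1 and 16.1 CPM on 20 kPa, and 12.5 and 14.4 CPM on glass. Both gels lay above glass and overlapped with each other. The log2 fold change was 0.42 (SE 0.11) on 1 kPa against glass, 0.35 (SE 0.11) on 20 kPa against glass and 0.07 (SE 0.11) between the gels, which was not called. Without glass replicate 1 neither comparison with glass was called (0.32 on 1 kPa, 0.25 on 20 kPa), and without 20 kPa replicate 1 the 20 kPa call was also lost (0.27). An antisense transcript covers 7.32% of its exon bases, and whether strand was used in counting is not given in the sources used here.

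MyD88 is the adaptor that couples most Toll-like receptors and the IL-1 family receptors to the IRAK kinases. Myd88 (ENSMUSG00000032508.9, chromosome 9, 119335934 to 119341411, minus strand) had 49.5 and 48.1 CPM on 1 kPa, 45.7 and 51.3 CPM on 20 kPa, and 34.3 and 32.6 CPM on glass. Both gels were above glass, and their libraries overlapped with each other. Its log2 fold change was 0.55 (SE 0.08) on 1 kPa against glass, 0.53 (SE 0.08) on 20 kPa against glass and 0.01 (SE 0.08) between the gels. The neighbouring gene Acaa1a on the other strand overlaps 11.3% of the exon bases of Myd88, and Acaa1a itself rose by 0.42 (edgeR adjusted p = 1.08e-06) on 1 kPa against glass and by 0.25 (adjusted p = 0.00111) on 20 kPa against glass. Its part in the Myd88 counts was not tested.

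Downstream of the receptors, 6 of 20 tested adaptors and kinases rose and 3 fell on 1 kPa against glass, while 8 rose and 2 fell on 20 kPa against glass. On 1 kPa against 20 kPa, 5 rose and 1 fell. In the same order, 45.0%, 41.8% and 18.9% of all tested genes were called in either direction, and nothing is read from these counts. Irak3, which encodes an inhibitory member of the IRAK family, had 40.8 and 44.5 CPM on 1 kPa, 18.9 and 16.9 CPM on 20 kPa, and 13.0 and 13.1 CPM on glass. It rose by 1.70 (SE 0.10, edgeR adjusted p = 3.46e-15) on 1 kPa against glass, by 0.45 (SE 0.10, adjusted p = 0.000753) on 20 kPa against glass and by 1.25 (SE 0.09, adjusted p = 7.62e-12) on 1 kPa against 20 kPa. The kinase gene Ikbke rose on both gels, with 101 ± 4.9 CPM on 1 kPa, 56.2 ± 4.5 CPM on 20 kPa and 39.5 ± 2.1 CPM on glass. The interferon regulatory factor gene Irf7 rose by 1.57 (SE 0.11, adjusted p = 8.11e-13) on 1 kPa against glass and by 1.06 (SE 0.12, adjusted p = 8.73e-09) on 20 kPa against glass.

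Several receptor genes of the IL-1 family, Il1r1 and Il1rl1 among them, lie in a cluster on chromosome 1 and moved in different directions. IL1R1 is the signalling receptor of IL-1 alpha and beta. Il1r1 (ENSMUSG00000026072.13, chromosome 1, 40225080 to 40317257, plus strand) had 496 and 480 CPM on 1 kPa, 417 and 389 CPM on 20 kPa, and 184 and 191 CPM on glass. The 3 groups did not overlap and the larger step was between glass and the gels. Its log2 fold change was 1.38 (SE 0.06) on 1 kPa against glass, 1.10 (SE 0.06) on 20 kPa against glass and 0.28 (SE 0.06) on 1 kPa against 20 kPa. The last value was not called without 20 kPa replicate 2 (0.22).

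IL1RL1, also called ST2, is the receptor of IL-33 and is made in a membrane form and a soluble form that acts as a decoy. Il1rl1 (ENSMUSG00000026069.16, chromosome 1, 40429570 to 40465415, plus strand) had 1971 and 1972 CPM on 1 kPa, 2129 and 2129 CPM on 20 kPa, and 2788 and 3029 CPM on glass. It was the gene of highest level per kb among the 10 in all 6 libraries and the only one called lower on the gels than on glass. Its log2 fold change was -0.56 (SE 0.06) on 1 kPa against glass, -0.45 (SE 0.06) on 20 kPa against glass and -0.11 (SE 0.06) between the gels. The last value was called only without either of the glass libraries among 12 alternatives. Counts per gene do not separate the membrane form and the soluble form.

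The ratio of Il1rl1 to Il1r1 per kb was 3.73 ± 0.093 on 1 kPa, 4.88 ± 0.25 on 20 kPa and 14.3 ± 0.49 on glass (SD, n = 2 each). IL1RAP is the co-receptor that both IL1R1 and ST2 need for signalling. Il1rap had 184 and 174 CPM on 1 kPa, 196 and 177 CPM on 20 kPa, and 120 and 140 CPM on glass. It rose by 0.47 (SE 0.07, edgeR adjusted p = 1.23e-06) on 1 kPa against glass and by 0.53 (SE 0.07, adjusted p = 1.61e-07) on 20 kPa against glass. Per kb, Il1rl1 exceeded Il1rap 18.2-fold on 1 kPa, 18.8-fold on 20 kPa and 37.1-fold on glass, and Il1r1 exceeded it 4.86-fold, 3.85-fold and 2.59-fold on the same substrates.

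**Figure D3:**
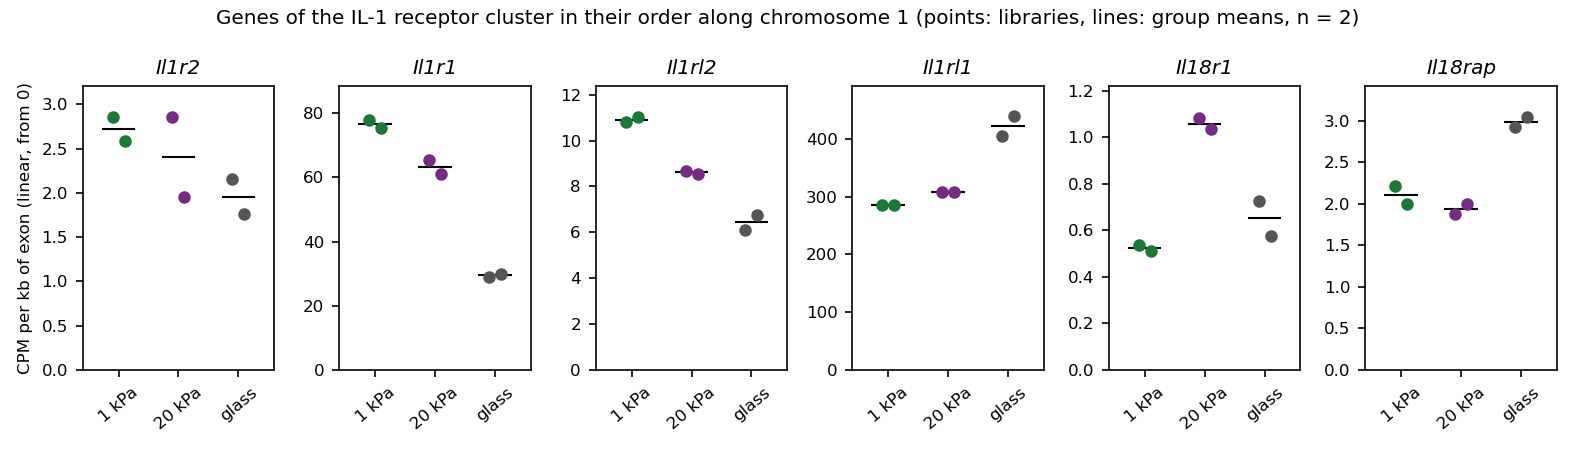
Genes of the IL-1 receptor cluster on chromosome 1 in their order along the chromosome, in CPM per kb of exon on linear axes that start at 0, with each panel on its own scale. Points are libraries and lines are the means of 2 libraries on 1 kPa, 20 kPa and glass. Il1r1 and Il1rl2 are higher on both gels than on glass, while Il1rl1 and Il18rap are lower.

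Of the 7 tested other receptors of the family, 2 rose and 1 fell on 1 kPa against glass, and 4 rose and 1 fell on 20 kPa against glass. In these comparisons 45.0% and 41.8% of all tested genes were called. Il1rl2, the IL-36 receptor gene between Il1r1 and Il1rl1, rose on 1 kPa by 0.76 (SE 0.07, edgeR adjusted p = 3.13e-10) and on 20 kPa by 0.42 (SE 0.07, adjusted p = 1.73e-05) against glass. Il18rap, which encodes a subunit of the IL-18 receptor, fell by 0.50 (SE 0.11, adjusted p = 0.000315) on 1 kPa and by 0.62 (SE 0.11, adjusted p = 2.18e-05) on 20 kPa. Il18r1, the other subunit gene, had 2.58 and 2.47 CPM on 1 kPa, 5.21 and 4.99 CPM on 20 kPa, and 3.51 and 2.78 CPM on glass, and fell by 1.01 (SE 0.22, adjusted p = 0.000846) on 1 kPa against 20 kPa. The decoy receptor gene Il1r2, on the far side of Il1r1, had 5.19 ± 0.37 CPM on 1 kPa, 4.59 ± 1.2 CPM on 20 kPa and 3.74 ± 0.53 CPM on glass and was not called in any comparison.

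RefSeq gives a pair of start sites each for Il1r1 and Il1rl1. Their windows are shown because these genes of the same cluster moved in opposite directions. For Il1r1 the second start is printed (GRCm38.p6, chr1:40266336-40266635, plus strand), with a kappaB match at -232 in capitals. For Il1rl1 both starts are printed (chr1:40429320-40429619 and chr1:40439379-40439678, plus strand), with GATA matches at -217 and -103 in capitals.

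Il1r1, second start: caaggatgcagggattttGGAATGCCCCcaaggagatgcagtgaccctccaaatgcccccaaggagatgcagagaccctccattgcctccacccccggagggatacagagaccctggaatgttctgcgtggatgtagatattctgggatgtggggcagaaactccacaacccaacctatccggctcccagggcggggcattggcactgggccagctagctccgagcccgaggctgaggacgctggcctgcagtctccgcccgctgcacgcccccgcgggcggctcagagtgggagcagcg
Il1rl1, first start: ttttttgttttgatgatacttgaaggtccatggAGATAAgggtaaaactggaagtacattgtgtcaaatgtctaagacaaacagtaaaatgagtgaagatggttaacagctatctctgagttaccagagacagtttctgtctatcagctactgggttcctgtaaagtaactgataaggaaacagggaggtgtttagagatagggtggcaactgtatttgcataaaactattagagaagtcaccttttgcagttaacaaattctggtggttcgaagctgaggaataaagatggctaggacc
Il1rl1, second start: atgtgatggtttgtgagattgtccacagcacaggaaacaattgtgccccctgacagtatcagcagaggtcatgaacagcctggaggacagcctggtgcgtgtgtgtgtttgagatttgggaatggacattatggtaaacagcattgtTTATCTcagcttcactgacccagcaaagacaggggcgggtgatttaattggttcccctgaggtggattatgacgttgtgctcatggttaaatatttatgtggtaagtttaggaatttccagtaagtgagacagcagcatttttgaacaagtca

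No match to the 5 motifs was present in the window of the first Il1r1 start. The counts are per gene and do not tell which start was used.

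Ligands of these receptors were measured in the same libraries. On 1 kPa against glass, 13 of 16 tested ligands and antagonists of the IL-1 and TNF families rose and none fell. Of all tested genes, 23.0% rose and 22.0% fell. On 20 kPa against glass 9 rose and none fell, beside 22.3% and 19.6%. Il1b, Il1f6 and Il1f9 had 0 counts in both glass libraries. They passed the filter through the gel libraries and could only be called higher. The list was chosen with results of these data known, so nothing is read from these counts. Il33, the ligand of ST2, had 14.7 and 15.4 CPM on 1 kPa, 19.2 and 20.0 CPM on 20 kPa, and 2.40 and 1.91 CPM on glass. It rose by 2.78 (SE 0.16, edgeR adjusted p = 4.98e-15) on 1 kPa against glass and by 3.16 (SE 0.15, adjusted p = 1.08e-16) on 20 kPa against glass, where Il1rl1 was lower. Il1rn, the antagonist of IL1R1, had 46.0 and 47.7 CPM on 1 kPa, 44.3 and 44.2 CPM on 20 kPa, and 4.16 and 4.99 CPM on glass. It rose by 3.37 (SE 0.11, adjusted p = 4.93e-21) on 1 kPa against glass and by 3.28 (SE 0.11, adjusted p = 1.02e-20) on 20 kPa against glass.

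The agonists of IL1R1 had few counts. Il1b had 19 and 9 counts on 1 kPa, 1 and 1 on 20 kPa, and 0 and 0 on glass. With the glass group set to 3 counts in all, it was 9.46-fold higher on 1 kPa than on glass. Il1a had 38 counts on 1 kPa, 11 on 20 kPa and 8 on glass over the 2 libraries of each group, a ratio of 4.81 (95% counting interval 2.21 to 11.9) on 1 kPa against glass, and 11.25% of its exon bases overlap another gene. The fitted log2 fold change of Il1a on 1 kPa against glass was 2.23, a call lost without 1 kPa replicate 2 (1.96) or glass replicate 1 (1.50), and 3.34 without glass replicate 2. Tnf had 3 and 1 counts on 1 kPa, 1 and 1 on 20 kPa, and 0 and 0 on glass and was not tested.

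TNFRSF1B, or TNFR2, is the TNF receptor without a death domain. Tnfrsf1b (ENSMUSG00000028599.11, chromosome 4, 145213463 to 145246870, minus strand) had 53.2 and 54.5 CPM on 1 kPa, 43.1 and 40.1 CPM on 20 kPa, and 39.6 and 36.2 CPM on glass. The 1 kPa libraries stood above the other 4, and the 20 kPa libraries lay just above those on glass. Its log2 fold change was 0.50 (SE 0.08) on 1 kPa against glass, 0.13 (SE 0.08) on 20 kPa against glass, which was not called, and 0.37 (SE 0.08) on 1 kPa against 20 kPa. Between the gels the log2 fold change lay between 0.32 and 0.42 over 12 alternatives. Tnfrsf1a, the death-domain receptor of TNF, chosen for comparison after its values were seen, exceeded Tnfrsf1b per kb by 8.29 ± 0.19-fold on 1 kPa, 9.93 ± 0.057-fold on 20 kPa and 9.83 ± 0.11-fold on glass (SD, n = 2 each).

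Of 22 tested other members of the TNF receptor family, 8 rose and 4 fell on 1 kPa against glass, 10 rose and 4 fell on 20 kPa against glass, and 4 rose and 2 fell on 1 kPa against 20 kPa. Over all tested genes, 45.0%, 41.8% and 18.9% were called in the same order of comparisons. Tnfrsf9, which encodes the co-stimulatory receptor 4-1BB, had 15.0 and 13.8 CPM on 1 kPa, 4.87 and 4.50 CPM on 20 kPa, and 0.462 and 0.522 CPM on glass. Tnfrsf9 was highest on 1 kPa and lowest on glass, as was Tnfrsf21. The latter averaged 70.8 ± 2.6 CPM on 1 kPa, 51.4 ± 1.1 CPM on 20 kPa and 10.8 ± 0.82 CPM on glass. Eda2r, the receptor of ectodysplasin A2, fell by 1.12 (SE 0.09, edgeR adjusted p = 1.83e-11) on 1 kPa against glass and by 1.02 (SE 0.09, adjusted p = 1.24e-10) on 20 kPa against glass.

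Fcgr2b was nearly silent on glass and present on both gels. It encodes the inhibitory receptor of immunoglobulin G, which carries an ITIM motif in its tail. Fcgr2b (ENSMUSG00000026656.16, chromosome 1, 170958617 to 170976547, minus strand) had 394 and 383 counts on 1 kPa, 307 and 283 counts on 20 kPa, and 1 and 3 counts on glass. In CPM these were 19.2 and 21.5 on 1 kPa, 15.0 and 13.7 on 20 kPa, and 0.0462 and 0.174 on glass. Every gel library was far above both glass libraries, and the 1 kPa libraries were above the 20 kPa libraries.

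The depth-scaled ratio of Fcgr2b counts was 197 (95% counting interval 76.6 to 724) on 1 kPa against glass, 139 (54.1 to 513) on 20 kPa against glass and 1.41 (1.27 to 1.58) on 1 kPa against 20 kPa. The intervals cover counting error only. The fitted log2 fold change was 7.54 (SE 0.28) on 1 kPa against glass and 7.04 (SE 0.30) on 20 kPa against glass, and depends on the prior count. Without glass replicate 1 these values were 6.81 and 6.31, and without glass replicate 2 they were 8.60 and 8.10. Fcgr2b passed the filter through the gel libraries and could only be called higher against glass. Between the gels the fitted value was 0.50 (SE 0.12), a call lost without 1 kPa replicate 2 (0.42) or without 20 kPa replicate 2 (0.44). An antisense transcript covers 2.68% of its exon bases, and reads of related Fc receptor genes could be split in counting.

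Fcgr3, the closest relative of Fcgr2b, chosen for comparison after its values were seen, had 0 and 0 counts on 1 kPa, 6 and 5 on 20 kPa, and 2 and 2 on glass. The nearest protein-coding genes on either side of Fcgr2b, Fcrla and Fcgr4, had at most 1 count in any library. Fcer1g, the signalling chain of activating Fc receptors, averaged 0.458 CPM on 1 kPa, 0.486 CPM on 20 kPa and 0.810 CPM on glass and was not called. Of 12 other Fc receptor genes 4 were tested, of which 3 rose on 1 kPa against glass and 2 on 20 kPa against glass. Among all tested genes, 23.0% and 22.3% rose in these comparisons. Fcgrt, the neonatal Fc receptor that recycles immunoglobulin G, rose by 0.45 (SE 0.06, edgeR adjusted p = 3.08e-07) on 1 kPa against glass and by 0.39 (SE 0.06, adjusted p = 4.04e-06) on 20 kPa against glass.

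The window of Fcgr2b (GRCm38.p6, chr1:170976022-170976321, minus strand) is shown because its gene had the highest fold change of the 10 against glass. It held no match to the 5 motifs, the leukocyte factor PU.1 included, which says only that those letters are not in this window.

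Fcgr2b: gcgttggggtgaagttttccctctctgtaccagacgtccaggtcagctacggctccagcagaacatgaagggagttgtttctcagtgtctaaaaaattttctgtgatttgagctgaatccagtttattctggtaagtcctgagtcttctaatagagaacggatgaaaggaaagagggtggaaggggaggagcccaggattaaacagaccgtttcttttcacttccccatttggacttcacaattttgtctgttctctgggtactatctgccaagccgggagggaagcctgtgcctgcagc

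**Figure D4:**
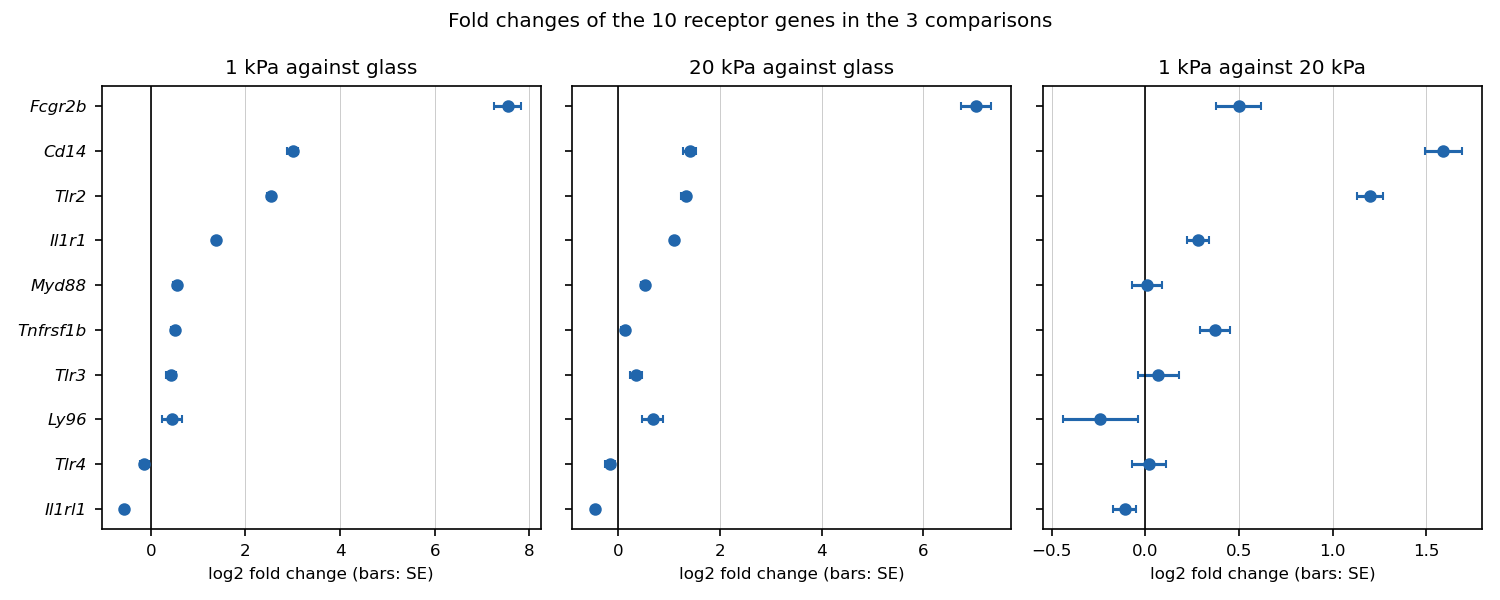
Log2 fold change of each of the 10 receptor genes on 1 kPa against glass, 20 kPa against glass and 1 kPa against 20 kPa, with bars of 1 SE and a separate scale in each panel. Fcgr2b is farthest right in both comparisons with glass, Cd14 and Tlr2 lead the comparison between the gels, and Il1rl1 lies left of 0 in all 3.

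Per kb, the order of the 10 genes was not the same on the 3 substrates. Il1rl1 and Il1r1 were the highest on each, with 286 and 76.7 CPM per kb on 1 kPa, 309 and 63.3 on 20 kPa, and 422 and 29.5 on glass. On 1 kPa they were followed by Tlr2 (28.3), Cd14 (24.6), Myd88 (19.0), Tnfrsf1b (14.1), Tlr4 (6.46), Ly96 (4.83), Fcgr2b (3.51) and Tlr3 (3.45). On 20 kPa the order was Myd88 (18.8), Tlr2 (12.3), Tnfrsf1b (10.9), Cd14 (8.14), Tlr4 (6.36), Ly96 (5.71), Tlr3 (3.28) and Fcgr2b (2.48). On glass it was Myd88 (13.0), Tnfrsf1b (9.92), Tlr4 (7.15), Tlr2 (4.90), Ly96 (3.63), Cd14 (3.04), Tlr3 (2.58) and Fcgr2b (0.019). Neighbours whose libraries overlapped were Fcgr2b and Tlr3 on 1 kPa, and Ly96 with Cd14 on glass. Thus Tlr2 and Cd14 stood above Myd88 on 1 kPa, and below Tlr4 on glass.

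Ptprc had 2 and 3 counts on 1 kPa, 4 and 3 counts on 20 kPa, and 5 and 5 counts on glass, too few to be tested. At counts this near the floor of 3, no direction between the substrates is read from Ptprc. Over the 2 libraries of a group, Fcgr2b had 155 counts for each Ptprc count on 1 kPa, 84.3 on 20 kPa and 0.4 on glass. For Cd14 these values were 326 on 1 kPa, 82.9 on 20 kPa and 20.6 on glass, and for Tlr2 they were 654, 218 and 57.3. The Ptprc counts beneath these ratios were 5, 7 and 10 in the same order. The ratios therefore carry a large counting error, and no interval was taken for them. The macrophage marker C1qa had at most 4 counts in any library, and Cd163 had 0 in all 6. Itgam had at most 1 count, but 68.67% of its exon bases overlap another gene on the same strand, so its reads could be lost in counting. The mast cell genes Cpa3, Mcpt4 and Tpsb2, the neutrophil genes S100a9 and Ly6g and the lymphocyte genes Cd79b, Ms4a1 and Cd3g were at 0 in all 6 libraries. These genes were named for their zeros, found in 5 of 12 mast cell and granulocyte markers and 4 of 12 lymphocyte markers. Other markers had counts in every library, with 64 to 93 for Cd68, 39 to 80 for Csf1r, 35 to 54 for Cd53 and 2 to 21 for Cd79a. The lymphocyte marker Trac had 7 and 2 counts on 1 kPa, 5 and 3 on 20 kPa, and 0 and 0 on glass.

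Some markers of other cells moved with the gels at low levels. The summed leukocyte markers were 7.36 and 8.07 CPM on 1 kPa, 8.14 and 7.99 CPM on 20 kPa, and 5.64 and 6.03 CPM on glass. The summed macrophage and dendritic cell markers were 19.5 and 16.1 CPM on 1 kPa, 17.3 and 15.6 CPM on 20 kPa, and 11.9 and 14.0 CPM on glass. Both sums were somewhat higher on the gels, where 2 of 7 tested leukocyte markers rose and 1 fell on 1 kPa against glass, and 1 rose and none fell on 20 kPa. Lcp2, a haematopoietic adaptor, had 23 and 26 counts on 1 kPa, 29 and 20 on 20 kPa, and 0 and 0 on glass. With the glass group set to 3 counts in all, it was 16.5-fold higher on 1 kPa and 15.4-fold higher on 20 kPa. Among the leukocyte markers that rose, Lcp2 and Laptm5 passed the filter through gel libraries and could only be called higher against glass. Of 7 tested macrophage and dendritic cell markers, 3 rose and none fell on 1 kPa against glass, and 4 rose and 1 fell on 20 kPa. Trem2, which rose in both, also passed the filter through the gel libraries. Beside both lists, 45.0% of all tested genes were called on 1 kPa against glass and 41.8% on 20 kPa against glass.

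Mpeg1, which encodes a pore-forming protein of macrophages, averaged 2.66 CPM on 1 kPa, 2.02 CPM on 20 kPa and 0.788 CPM on glass. Lyz2 averaged 6.32 CPM on 1 kPa, 5.34 CPM on 20 kPa and 3.24 CPM on glass. The summed mast cell and granulocyte markers were 4.14 and 3.19 CPM on 1 kPa, 1.22 and 1.55 CPM on 20 kPa, and 0.509 and 0.812 CPM on glass, in the order in which Cd14 and Tlr2 were also found. Of these 12 genes 8 had at most 3 counts in every library, 5 of them 0 throughout, and only S100a8 and Camp were tested. On 1 kPa most of the sum came from Camp (2.17 CPM) and S100a8 (0.824 CPM). S100a8, a calcium-binding protein gene of neutrophils, had 20 and 12 counts on 1 kPa, 3 and 8 counts on 20 kPa, and 0 and 0 counts on glass. S100a8 and Camp passed the filter through the gel libraries and could only be called higher against glass. S100a8 was so called on both gels, on 20 kPa not without 20 kPa replicate 2 or glass replicate 1. Camp, a granule protein gene of neutrophils, averaged 2.17 CPM on 1 kPa, 0.680 CPM on 20 kPa and 0.249 CPM on glass. Its call on 20 kPa against glass was lost in 7 of 12 alternatives, DESeq2 and the replicate block among them. Whether such cells were present, and what part they had in the receptor genes, was not tested. The lymphocyte markers summed to between 0.58 and 1.65 CPM in the 6 libraries. The 11 keratinocyte markers summed to 26.7 and 28.8 CPM on 1 kPa, 27.1 and 27.8 CPM on 20 kPa, and 19.7 and 24.7 CPM on glass. Their sum was thus higher on the gels, although 1 of 6 tested rose and 4 fell on each gel against glass. The 12 endothelial markers summed to 75.8 and 69.7 CPM on 1 kPa, 102 and 97.5 CPM on 20 kPa, and 67.9 and 65.8 CPM on glass. Of them 7 rose and 1 fell on 1 kPa against glass, while 9 rose on 20 kPa against glass. Beside the keratinocyte and endothelial lists, 45.0% and 41.8% of all tested genes were called in these comparisons.

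**Figure D5:**
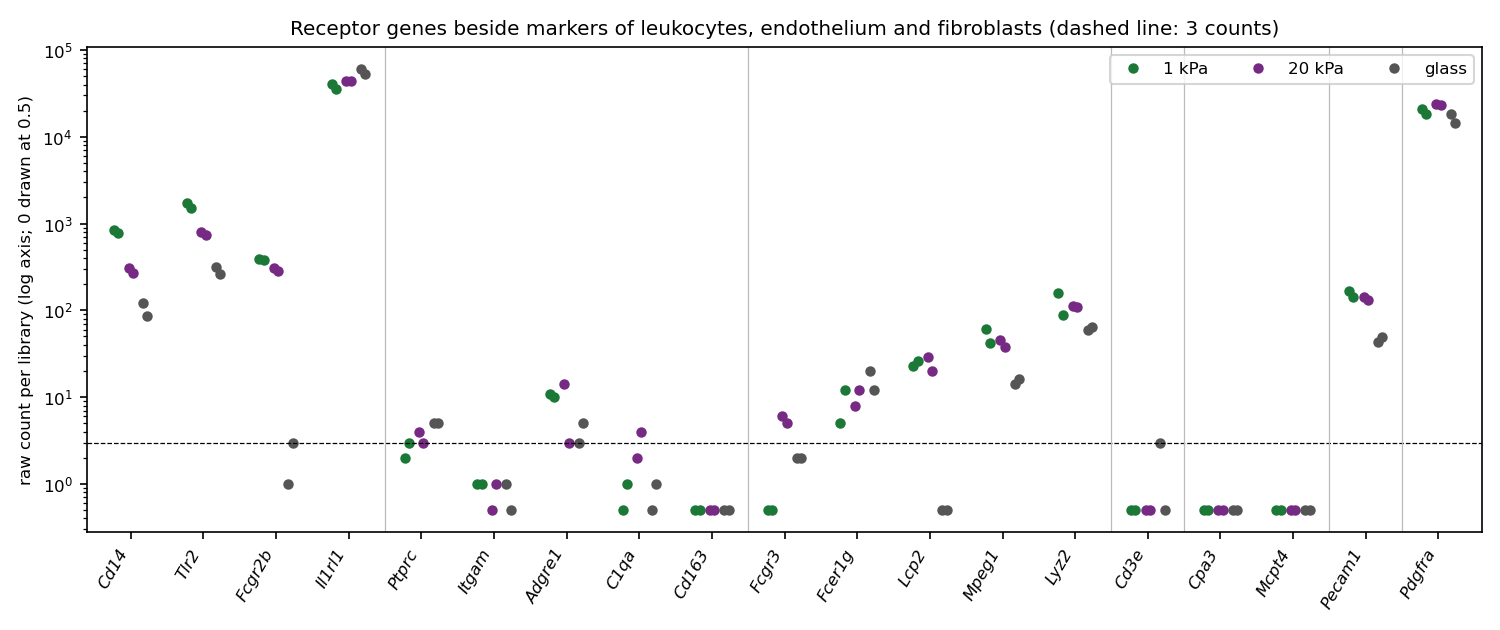
Raw counts per library of Cd14, Tlr2, Fcgr2b and Il1rl1 beside markers of leukocytes, lymphocytes, mast cells, endothelium and fibroblasts, on a log axis where 0 is drawn at 0.5 and the dashed line marks 3 counts. Points are the 2 libraries each of 1 kPa, 20 kPa and glass. Ptprc stays between 2 and 5 counts, while Fcgr2b has between 283 and 394 counts on the gels and 1 and 3 on glass.

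The genes whose pattern over the 6 libraries was nearest to each receptor were found among 10985 protein-coding genes by the root mean square difference of centred log2 CPM. For Cd14 they were Slc7a2 (0.12) and Cxcl5 (0.157), for Tlr2 Angptl4 (0.0593) and Ptges (0.0731), and for Il1r1 Sh3pxd2b (0.0211) and Mmp19 (0.0284). Slc7a2 encodes a cationic amino acid transporter, Cxcl5 a chemokine that attracts neutrophils, and Ptges a prostaglandin E synthase. Of the genes near Fcgr2b, Saa3, an acute-phase protein gene, lay at 0.479. The nearest genes were Mgat2 (0.0186) and Hs6st2 (0.0255) for Il1rl1, Chek1 (0.0132) and Crk (0.024) for Tlr4, and Hdac5 (0.0227) and Sdc4 (0.0262) for Tnfrsf1b. For Myd88, Tlr3 and Ly96 they were Smarcd3 (0.031), Klhl15 (0.0415) and Vstm2a (0.0977).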

How the data were processed

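RNA of 6 samples in 3 groups was analysed. The authors deposited raw counts per gene, whole numbers with no normalization. Per the submitters' processing notes, the tools included STAR 2.7.10b, featureCounts, cutadapt and Trim Galore, with mm10 as the build. Neither the annotation release nor the strand setting is given in the sources used here. Symbols, positions and exon lengths came from GENCODE M21 (GRCm38), which matched 91.4% of identifiers and 98.2% of those tested.

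Genes were kept with filterByExpr of edgeR 4.0.16 (R 4.3.3), libraries were scaled with TMM, and all 6 entered 1 quasi-likelihood fit with group as the only term and Benjamini-Hochberg adjustment over 16093 genes at a threshold of 0.05. SE was taken as the size of the log2 fold change over the square root of F, and the error of CPM is the SD of 2 libraries. Ratios of low counts have exact 95% intervals, which cover counting error only. The floor is 3 counts. A group with 0 counts was set to 3 counts over its 2 libraries together, and that ratio has no interval. The scripts were tested on simulated data.

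The 10 receptor genes and the lists were chosen with earlier results of these data known. From each list, the 4 genes with the smallest p over the 3 groups may be named, along with Tnf, Il1a, Il1b, Il33 and the nearest protein-coding neighbours. Others are named for their counts, or as markers at 0, after their values were seen. Nearest patterns were sought among genes with at least 5 CPM in the highest group. Promoter windows are RefSeq's (GRCm38.p6). Alternatives were DESeq2 1.42.0, other scalings and filters, the replicate block and leaving out each library. Some genes that the rule covers are not reported here.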

Additional observations from a re-analysis of the deposited data

How the results depend on the processing

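Across 12 alternatives no fold change of the 10 receptor genes that was called reversed, 342 of their values moved by no more than the SE, and 18 moved by more, each when 1 library was left out. The number of genes called on 1 kPa against 20 kPa was 3035, and 2022 with DESeq2. Leaving out 1 library at a time gave 5569 to 6997 genes and 8 to 9 receptor genes on 1 kPa against glass, 5118 to 6442 and 6 to 8 on 20 kPa against glass, and 1680 to 3824 and 3 to 6 on 1 kPa against 20 kPa. The 2 libraries of a group differed most on glass. The chi-square of their counts per degree of freedom was 37.8 on glass, 9.8 on 1 kPa and 3.46 on 20 kPa. All groups share 1 estimate of the spread. An SE or p against glass may thus be too small, and those between the gels too large. The cause of the changes in the numbers called was not tested. Without a TMM scaling, 39.2% of the genes called on 1 kPa against 20 kPa were higher on 1 kPa, against 52.6% with it. With DESeq2 the 20 kPa calls of Tlr3 and Ly96 against glass were lost. The labels give the groups the same replicate numbers, but the deviations of same-numbered libraries correlated at -0.0338, -0.0347 and -0.0158, so the numbers were not taken as pairs. With the replicate block, 7032 genes were called on 1 kPa against glass, 6526 on 20 kPa against glass and 2862 on 1 kPa against 20 kPa, with 8, 8 and 5 of the receptor genes. With 2 libraries a group, the lone library left in a leave-one-out fit is assumed to vary like the others. The floor of 3 counts limits what can be said of Ptprc, Tnf and Fcgr3.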

Other observations

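Cytosolic sensors detect microbial products inside the cell. Of 14 tested, 10 rose and none fell on 1 kPa against glass, where 45.0% of all tested genes were called in either direction. On 20 kPa against glass 8 rose and 1 fell, beside 41.8% of all tested genes called, and on 1 kPa against 20 kPa 6 rose and 1 fell, beside 18.9%. Nod2, the muramyl dipeptide sensor, had 9.65 and 8.69 CPM on 1 kPa, 2.83 and 2.81 CPM on 20 kPa, and 1.53 and 1.28 CPM on glass, and rose by 1.70 (SE 0.19, edgeR adjusted p = 3.72e-08) on 1 kPa against 20 kPa. Nod1 had 96.6 ± 2.9 CPM on 1 kPa, 58.1 ± 0.087 CPM on 20 kPa and 49.9 ± 0.73 CPM on glass (SD, n = 2 each), and its call on 20 kPa against glass was lost without either 20 kPa library. Zbp1, a sensor of left-handed nucleic acids, rose by 2.19 (SE 0.17, adjusted p = 4.36e-12) on 1 kPa against glass and by 1.54 (SE 0.18, adjusted p = 2.59e-08) on 20 kPa against glass.

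Of 9 tested lectin and scavenger receptors, 6 rose and 2 fell on 1 kPa against glass, and 3 rose and 1 fell on 20 kPa against glass. In these comparisons 45.0% and 41.8% of all tested genes were called in either direction. Scara3 averaged 242 ± 4.5 CPM on 1 kPa, 249 ± 9.9 CPM on 20 kPa and 77.5 ± 5.6 CPM on glass (SD, n = 2 each). Scarb1, the receptor of high-density lipoprotein, fell by 0.71 (SE 0.06, edgeR adjusted p = 1.28e-10) on 1 kPa against glass and by 1.09 (SE 0.07, adjusted p = 1.6e-14) on 20 kPa against glass.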
